A study of Mus musculus with 14 samples.

Results

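Receptors and bridging molecules for the uptake of apoptotic cells were followed across the genotypes of colonic macrophages. The set holds 10 genes chosen by name from the 24982 genes of the count table, which lists symbols in capitals: the receptors MERTK, AXL, TIMD4, STAB1 and TREM2, the soluble bridging molecules PROS1 and MFGE8, and the scavenger receptors CD36, MSR1 and MARCO. All 10 passed the filter on low counts and were tested among 13136 genes. Macrophages were sorted from the lamina propria of colon and cecum as live CD45+, Ly6G-, CD103-, CD64+, CD11b+, MHCII+ and Ly6C- cells. Every mouse was 5 weeks old, C57BL/6 by strain label, and carried *Cdcs1*, a locus for susceptibility to colitis. WT mice had no further listed mutation (4 mice compared, 5 deposited). IL10RAKO mice were *Il10ra* -/- (4 mice), DKO mice were *Il10ra* -/- and *Ccr2* -/- (4 mice), and a CCR2KO mouse was *Ccr2* -/- alone (1 mouse). Deletion of the IL-10 receptor was not restricted to macrophages in these genotypes, and the labels give no sex, litter or batch. Mice are called by their sample numbers, and nothing in the labels ties the mice of different genotypes together.

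Apoptotic cells expose phosphatidylserine, and phagocytes read it either directly or through soluble bridges. MERTK and AXL are receptor tyrosine kinases of the TAM family whose ligands, PROS1 (protein S) and GAS6, bind phosphatidylserine on the dying cell. MFGE8 bridges phosphatidylserine to αv integrins, TIMD4 (TIM-4) and STAB1 (stabilin-1) bind it themselves, and CD36, MSR1 (SR-A) and MARCO also take up oxidised lipids or bacteria. TREM2 senses lipids and apoptotic cells through the adaptor TYROBP. Gut macrophages clear dying epithelial cells and keep an anti-inflammatory state that depends on IL-10.

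Between 13085287 and 21216468 reads were counted per library in the 12 mice compared, and levels are in CPM, each count divided by its TMM-scaled library size. The targeted genes followed their labels. WT mice had 217 to 380 CPM of IL10RA, against 3.41 to 7.59 in DKO mice and 4.89 to 11.2 in IL10RAKO mice. CCR2 was counted at 3.92 to 6.68 CPM in DKO mice, at 361 to 627 in IL10RAKO mice and at 514 to 702 in WT mice. Summed CPM of macrophage markers spanned 9506 to 15879 (WT), 12631 to 19784 (IL10RAKO) and 12177 to 18505 (DKO), and none of the 8 was at 0 in any genotype. Of these markers, 2 passed as higher in IL10RAKO and 2 as lower in DKO against WT. Monocyte marker sums were 447 to 547 CPM (WT), 384 to 1064 (IL10RAKO) and 443 to 706 (DKO), with 2 of 6 higher and 1 lower in both. Other cell types differed between genotypes. The sum of the 6 fibroblast markers was 294 to 577 CPM among WT, 15.0 to 53.7 among IL10RAKO and 16.1 to 67.0 among DKO mice, and all 6 passed the test as lower in both knockout genotypes. None of them was at 0 in every mouse of a genotype. Neutrophil markers went the other way, with sums of 0.997 to 7.40 CPM in WT, where S100A9 had no read in any mouse, against 9.61 to 124 among IL10RAKO and 64.8 to 89.7 among DKO mice. All 5 tested neutrophil markers passed as higher in both. Dendritic cell markers summed to 260.3 to 1092 CPM in WT and to 1095 to 1960 in the 8 knockout mice, with 3 of 6 higher in IL10RAKO and 2 of 6 in DKO. Endothelial marker sums were 78.7 to 247 CPM (WT), 68.4 to 110.2 (IL10RAKO) and 54.2 to 88.4 (DKO), with 1 and 2 of 5 tested markers lower. Pericyte and muscle markers summed to 28.4 CPM or more in each WT mouse and 12.8 or less in each knockout mouse, with 4 and 5 of 5 tested lower, and the sums of glial and adipocyte markers were likewise 7.45 or more against 5.44 or less. WT mouse 11, which the study did not use, stood apart with 11670 detected genes against 13485 to 15450 in the other 13 libraries, and epithelial markers summed to 2678 CPM there. WT mouse 10 was the next highest, at 978. In bulk RNA, fewer cells of a type and less RNA per cell cannot be told apart.

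**Figure D1:**
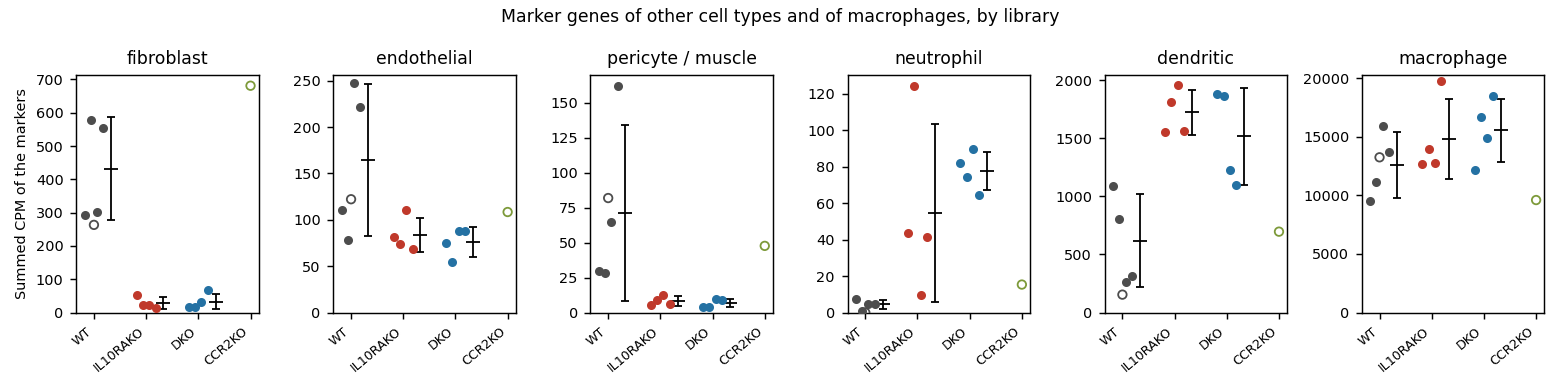
Summed CPM of fixed marker genes (y axis, linear) for 6 cell types in each library, by genotype (x axis). Filled points are the 12 mice compared, with mean ± SD (n = 4), and open points are WT mouse 11 and the single CCR2KO mouse. Fibroblast sums separate the 4 WT mice (294 CPM or more) from the 8 knockout mice (67.0 CPM or less), and neutrophil sums separate them the other way.

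Loss of IL10RA was accompanied by lower levels of 4 of these genes and, in DKO mice, by higher levels of 3. PROS1, MFGE8, STAB1 and CD36 fell in both IL10RAKO and DKO macrophages, each to between 0.27 and 0.40 times the WT level. MARCO, MSR1 and MERTK passed as higher in DKO macrophages. Across alternative ways of running the test, these 3 calls held in 21 of 24, 23 of 25 and 14 of 25. MARCO did not pass once WT mouse 11 was included. AXL, the member with the highest level per length, TREM2 and TIMD4 did not pass the test in any comparison. Between DKO and IL10RAKO macrophages, no member passed.

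In numbers, 4 of 10 members passed an adjusted p of 0.05 in IL10RAKO against WT (0 higher, 4 lower; edgeR quasi-likelihood test with Benjamini-Hochberg adjustment over all 13136 genes), where 15.8% of all tested genes passed (8.7% higher, 7.1% lower). In DKO against WT, 7 of 10 passed (3 higher, 4 lower), against 18.5% of all genes (9.23% higher, 9.22% lower). Scaling by library totals in place of TMM moved the median log2 change of all genes from -0.07 to -0.38 in IL10RAKO and from -0.06 to -0.32 in DKO, and the share of higher genes among those that passed from 55.1% to 23.8% and from 50.0% to 25.9%. In DKO against IL10RAKO, 0 of 10 members passed in edgeR and 0 in DESeq2, and 1 had an unadjusted p under 0.05, while 0.0457% of all genes passed (0.0152% higher, 0.0305% lower). The median log2 difference over the 10 members was -0.04 in IL10RAKO and -0.07 in DKO against WT, near the medians of all genes. The median of absolute log2 differences was 1.10 and 1.27 for the members and 0.39 and 0.41 for all genes, with members on both sides of 0. Both comparisons share the same 4 WT mice. Counted by non-overlapping CPM, 4 members lay below every WT mouse in IL10RAKO (8.78% of all genes did) and 1 above (9.45%), and in DKO 4 lay below (11.0% of all genes) and 2 above (11.2%).

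**Figure D2:**
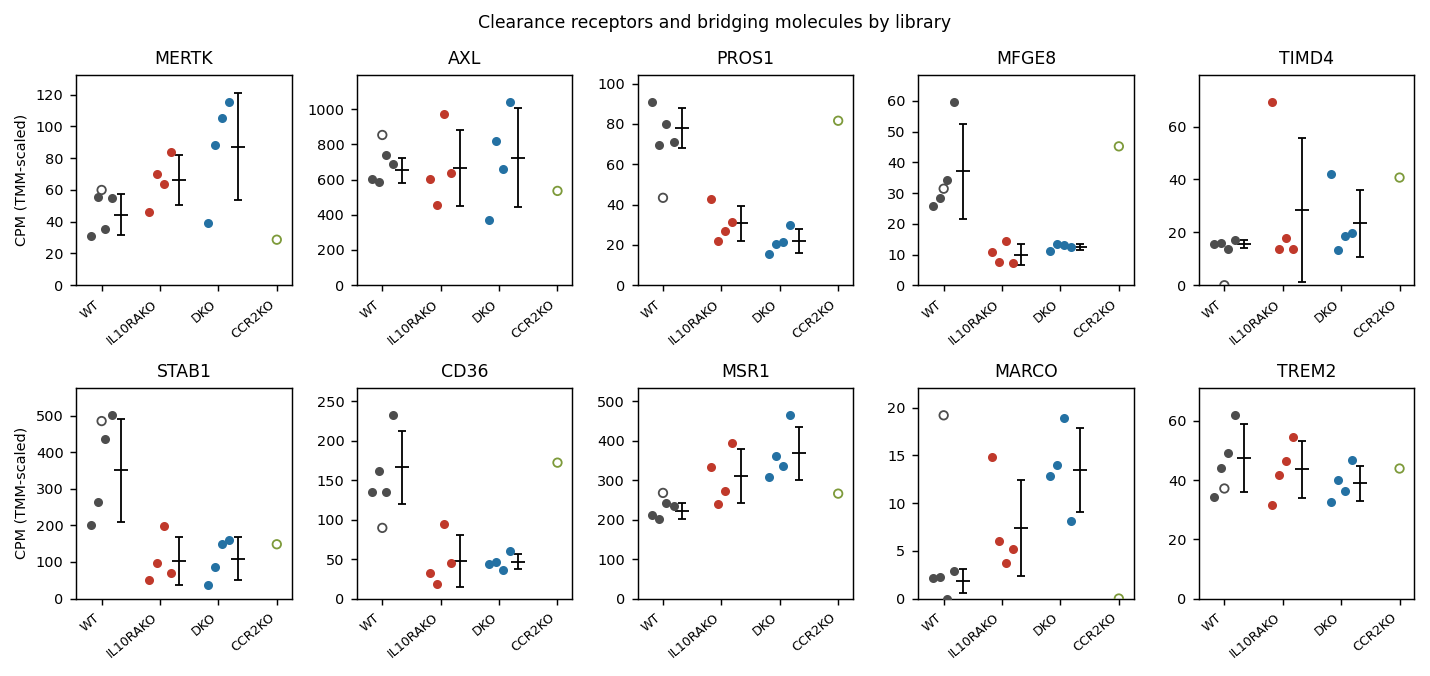
CPM after TMM scaling (y axis, linear, from 0) of each of the 10 genes in each library, by genotype (x axis). Filled points are single mice, bars are mean ± SD (n = 4), and open points are WT mouse 11 and the CCR2KO mouse, which entered no mean. PROS1, MFGE8, STAB1 and CD36 lie lower in all 8 IL10RAKO and DKO mice than in the 4 WT mice, and MARCO lies higher.

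Among the 4 genes that fell, the bridging molecules had the smallest standard errors. PROS1 (chromosome 16, 62854307 to 62929346, plus strand, GRCm38) is a secreted vitamin K-dependent protein that bridges phosphatidylserine to MERTK and also serves as an anticoagulant cofactor. It was counted at 90.9, 69.4, 80.2 and 70.9 CPM in WT mice, at 42.6, 22.1, 26.9 and 31.6 CPM in IL10RAKO mice and at 15.6, 20.2, 21.4 and 30.1 CPM in DKO mice. All 8 knockout mice lay below the lowest WT mouse. The log2 difference to WT was -1.34 in IL10RAKO (SE 0.23, 2.53-fold lower, edgeR adjusted p = 0.00118) and -1.83 in DKO (SE 0.23, 3.56-fold lower, edgeR adjusted p = 9.07e-05). Between DKO and IL10RAKO, it was -0.50 (95% confidence interval -0.99 to -0.0043, edgeR unadjusted p = 0.0483, adjusted p = 1.00), the only member with an unadjusted p under 0.05 there. WT mouse 11 had 43.4 CPM, just above the highest IL10RAKO mouse.

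MFGE8 (chromosome 7, 79133768 to 79149060, minus strand), the secreted bridge to αv integrins, was at 25.9, 28.5, 34.3 and 59.7 CPM in WT mice. It was at 10.8, 7.41, 14.5 and 7.20 CPM in IL10RAKO mice and at 11.0, 13.4, 13.0 and 12.5 CPM in DKO mice. The genotypes did not overlap with WT, and the DKO mice lay close together (coefficient of variation 8.44%). MFGE8 was 3.71-fold lower in IL10RAKO (log2 difference -1.89, SE 0.29, edgeR adjusted p = 0.000458) and 2.97-fold lower in DKO (-1.57, SE 0.29, edgeR adjusted p = 0.00151). PROS1 and MFGE8 each passed in 24 of 25 alternative settings in both comparisons, leaving out any 1 mouse included.

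Receptors with a fall came next. STAB1 (chromosome 14, 31139013 to 31168641, minus strand) encodes stabilin-1, a large scavenger receptor of macrophages and of sinusoidal and lymphatic endothelium. It was at 202, 264, 436 and 501 CPM in WT mice, at 50.5, 98.2, 198 and 69.0 CPM in IL10RAKO mice and at 35.998, 87.4, 150.2 and 161 CPM in DKO mice. The lowest WT mouse (mouse 4) was only just above IL10RAKO mouse 7. The log2 difference was -1.75 in IL10RAKO (SE 0.48, edgeR adjusted p = 0.0228) and -1.69 in DKO (SE 0.48, edgeR adjusted p = 0.0241). The IL10RAKO call was lost when mouse 1, 2 or 8 of IL10RAKO or mouse 10 or 13 of WT was left out (edgeR adjusted p from 0.0517 to 0.0754), and the DKO call without DKO mouse 3 or 9 or WT mouse 10 or 13 (0.0514 to 0.0753). STAB1 shares 112 of its 10288 exonic bases with NT5DC2 on the opposite strand. Without a stated strand setting, their reads there cannot be told apart. NT5DC2 itself was lower in both genotypes (log2 difference -1.43 and -1.62).

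CD36 (chromosome 5, 17781690 to 17888801, minus strand) binds oxidised phosphatidylserine, thrombospondin and long-chain fatty acids. It was at 135, 162, 135 and 232 CPM in WT mice, at 32.8, 18.7, 94.5 and 45.0 CPM in IL10RAKO mice and at 43.6, 46.4, 36.7 and 59.8 CPM in DKO mice. IL10RAKO mouse 7 was the highest of the knockout mice and below all 4 WT mice compared. WT mouse 11 had 89.5 CPM, below IL10RAKO mouse 7. CD36 was 3.47-fold lower in IL10RAKO (log2 difference -1.79, SE 0.38, edgeR adjusted p = 0.00501) and 3.56-fold lower in DKO (-1.83, SE 0.38, edgeR adjusted p = 0.00405).

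By genotype, the fall of these 4 genes went the same way as the fibroblast and endothelial marker sums given above. The genes are also known in stromal or endothelial cells, which the sort on CD45, CD64 and CD11b should leave out. Fibroblast sums of all 4 WT mice lay above those of every knockout mouse. The endothelial sum of WT mouse 5 (78.7 CPM) lay within the IL10RAKO range. WT mouse 5 was above every knockout mouse both in its levels of these 4 genes and in its fibroblast sum (577 CPM). The part of either cell type was not tested in single mice. With the mean log2 CPM of the fibroblast markers as a covariate, none of the 10 members passed in either comparison with WT. The 4 log2 differences were then -0.42 to -1.26 in IL10RAKO (edgeR adjusted p = 1.00 for each) and -0.50 to -1.33 in DKO (edgeR adjusted p from 0.674 to 0.973), and of all genes only 29 and 61 passed. That mean was 4.52 to 5.57 in WT mice, 0.37 to 2.42 in IL10RAKO mice and 0.63 to 2.49 in DKO mice, so genotype and fibroblast marker level cannot be told apart in these libraries. With an endothelial covariate, which was added after seeing the data, PROS1 and MFGE8 still passed in IL10RAKO, and PROS1, MFGE8, CD36 and MSR1 in DKO. CD36 in IL10RAKO was then at a log2 difference of -1.51 (edgeR adjusted p = 0.0557), and STAB1 at -0.998 and -1.05 in IL10RAKO and DKO. The CCR2KO mouse had the highest fibroblast sum (681 CPM) and was at 81.6 CPM for PROS1, 45.2 for MFGE8 and 172 for CD36, each within the WT range, but at 148 CPM for STAB1, below all WT mice.

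The class A scavenger receptors MSR1 and MARCO passed as higher in DKO and did not pass in IL10RAKO. MSR1 (chromosome 8, 39581685 to 39642673, minus strand), which binds modified lipoproteins and apoptotic cells, was at 211, 200.5, 242 and 236 CPM in WT mice. It was at 334, 241, 272 and 393 CPM in IL10RAKO mice and at 309, 361, 337 and 465 CPM in DKO mice. All DKO mice exceeded the highest WT mouse, while IL10RAKO mouse 2 lay within the WT range. MSR1 was 1.66-fold higher in DKO (log2 difference 0.73, SE 0.18, edgeR adjusted p = 0.0111) and did not pass in IL10RAKO (0.48, 95% confidence interval 0.10 to 0.86, edgeR adjusted p = 0.0866). Without IL10RAKO mouse 2, the IL10RAKO difference passed (0.59, edgeR adjusted p = 0.0483), and with library totals in place of TMM the DKO difference did not (0.47, edgeR adjusted p = 0.0573).

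MARCO (chromosome 1, 120474538 to 120505024, minus strand), a scavenger receptor best known for binding bacteria and particles, had the lowest level of the 10 in WT mice. WT mice had 46, 39, 0 and 44 reads, or 2.20, 2.29, 0 and 2.93 CPM. A count of 0 in WT mouse 10 allows up to 0.124 CPM at 3 reads, a floor for counting error only. IL10RAKO mice had 14.8, 5.98, 3.74 and 5.15 CPM (74 to 213 reads), and DKO mice had 12.9, 14.0, 18.9 and 8.11 CPM (164 to 269 reads). Every knockout mouse was above every WT mouse. The log2 difference was 2.88 in DKO (SE 0.77, 7.34-fold, edgeR adjusted p = 0.0173) and 2.02 in IL10RAKO (SE 0.75, edgeR adjusted p = 0.0869). The IL10RAKO difference passed in DESeq2 (adjusted p = 0.0288), with the bias-adjusted deviance of edgeR 4 (0.0269) and without WT mouse 10 (edgeR adjusted p = 0.0357). WT mouse 11 had 262 reads of MARCO, or 19.2 CPM, more than any of the 12 mice compared, and with it in the fit the DKO difference was 1.35 (edgeR adjusted p = 0.402). By genotype, the rises of MSR1 and MARCO went the same way as the neutrophil and dendritic cell markers, whose part was not tested. In single mice the values went both ways, and no relation across mice was tested. IL10RAKO mouse 2 had the highest neutrophil sum (124 CPM) and the lowest MSR1 of its genotype. WT mouse 11, outside the 12 mice compared, had the most MARCO and a neutrophil sum of 0. Among DKO mice, mouse 12 was the highest and mouse 14 the lowest for both MARCO and the neutrophil sum. Dendritic sums were 1813 CPM in IL10RAKO mouse 2, 154 in WT mouse 11, 1225 in DKO mouse 12 and 1095 in DKO mouse 14.

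Among the TAM receptors, MERTK (chromosome 2, 128698956 to 128802894, plus strand) was at 31.1, 55.7, 35.5 and 55.0 CPM in WT mice, at 46.3, 70.1, 64.1 and 84.0 CPM in IL10RAKO mice and at 39.3, 88.5, 105 and 115 CPM in DKO mice. DKO mouse 3 lay within the WT range and the other 3 DKO mice above it. The log2 difference was 0.98 in DKO (SE 0.31, 1.97-fold, edgeR adjusted p = 0.0386) and 0.58 in IL10RAKO (95% confidence interval -0.07 to 1.23, edgeR adjusted p = 0.226). This was the least stable of the calls, passing in 14 of 25 alternative settings. It was lost without WT mouse 4 or 10 or without DKO mouse 9, 12 or 14 (edgeR adjusted p from 0.0751 to 0.114), with 13 libraries (0.0626), in a fit of only these 2 genotypes (0.0549), with library totals (0.111), with limma on the pseudocounts (0.0543) and with a fibroblast (0.652) or endothelial covariate (0.139). Its direction was the same in all 25.

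AXL (chromosome 7, 25757273 to 25788705, minus strand) was at 601, 583, 738 and 686 CPM in WT mice, at 605, 454, 969.7 and 635 CPM in IL10RAKO mice and at 372, 820.4, 658 and 1040 CPM in DKO mice. Knockout mice lay on both sides of the WT range. The log2 difference was 0.03 in IL10RAKO (95% confidence interval -0.56 to 0.62) and 0.15 in DKO (-0.44 to 0.74), and with library totals its sign turned in both (-0.28 and -0.11). TYRO3, the remaining TAM receptor, was below the filter, with 0 to 10 reads in each knockout mouse and 77, 0, 136 and 0 reads in WT mice.

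TREM2 (chromosome 17, 48346401 to 48354147, plus strand) was at 34.2, 44.1, 49.0 and 61.9 CPM in WT mice, at 31.7, 41.5, 46.5 and 54.6 CPM in IL10RAKO mice and at 32.6, 40.03, 36.3 and 46.7 CPM in DKO mice. The genotypes overlapped throughout. The log2 difference was -0.12 in IL10RAKO (95% confidence interval -0.57 to 0.33) and -0.28 in DKO (-0.73 to 0.17).

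TIMD4 (chromosome 11, 46810800 to 46844332, plus strand), a marker of long-lived resident macrophages, was even in WT mice, at 15.7, 15.8, 13.9 and 17.2 CPM. It was at 69.3 CPM in IL10RAKO mouse 1 and at 13.6, 17.7 and 13.7 CPM in the other 3 IL10RAKO mice. It was at 42.0 CPM in DKO mouse 3 and at 13.2, 18.8 and 19.9 CPM in the other 3 DKO mice. The log2 difference was 0.87 in IL10RAKO (95% confidence interval -0.17 to 1.91, edgeR adjusted p = 0.258) and 0.59 in DKO (-0.45 to 1.62, edgeR adjusted p = 0.443), and without IL10RAKO mouse 1 the former was -0.05. The same mice, IL10RAKO mouse 1 and DKO mouse 3, had the lowest STAB1 and MERTK of their genotypes. TIMD4 was at 40.7 CPM in the CCR2KO mouse and had no read in WT mouse 11.

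**Figure D3:**
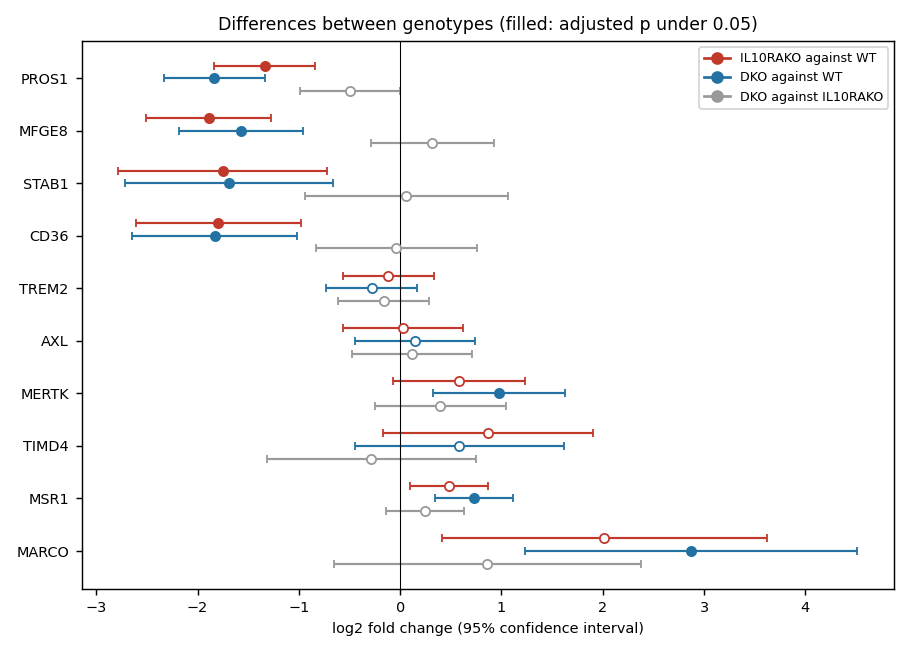
Log2 fold change (x axis) of each of the 10 genes (y axis) with its 95% confidence interval in 3 comparisons (colours), from the edgeR fit of 12 libraries. Filled points passed an adjusted p of 0.05. The 4 lower genes sit between -1.34 and -1.89 in both comparisons with WT, while every interval between DKO and IL10RAKO except that of PROS1 includes 0.

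Between DKO and IL10RAKO macrophages, which differ in *Ccr2*, intervals were narrow for some members and wide for others. The 95% confidence interval of the log2 difference was -0.14 to 0.63 for MSR1, -0.62 to 0.29 for TREM2, -0.29 to 0.93 for MFGE8, -0.25 to 1.05 for MERTK and -0.47 to 0.71 for AXL. It was -0.83 to 0.76 for CD36, -0.94 to 1.06 for STAB1, -1.31 to 0.75 for TIMD4 and -0.65 to 2.38 for MARCO. CPM of the DKO and IL10RAKO mice overlapped for all 10 genes.

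Levels between genes were compared per length, as CPM per kb of merged exon. In WT macrophages AXL was the highest at 130 ± 14.5 (mean ± SD, n = 4 mice), apart from all others. CD36 (46.2 ± 12.8), MSR1 (35.02 ± 3.12), STAB1 (34.1 ± 13.7) and PROS1 (19.0 ± 2.43) followed, each overlapping its neighbour. MERTK (10.2 ± 2.97), TREM2 (9.56 ± 2.33), MFGE8 (7.90 ± 3.29) and TIMD4 (7.20 ± 0.64) formed a lower group, in which neighbours again overlapped and none of whose values reached those of PROS1. MARCO was last at 0.96 ± 0.66. In IL10RAKO and DKO macrophages AXL stayed first (132 ± 43.2 and 144 ± 55.9), and MSR1 was the second, separate from its neighbours (48.9 ± 10.7 and 58.0 ± 10.7). MERTK came next in both (15.3 ± 3.60 and 20.1 ± 7.79), not separated from CD36 (13.3 ± 9.18 and 13.0 ± 2.70). PROS1 stood eighth in IL10RAKO (7.53 ± 2.14) and ninth in DKO (5.34 ± 1.48), and MFGE8 was last in both (2.12 ± 0.73 and 2.65 ± 0.22).

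**Figure D4:**
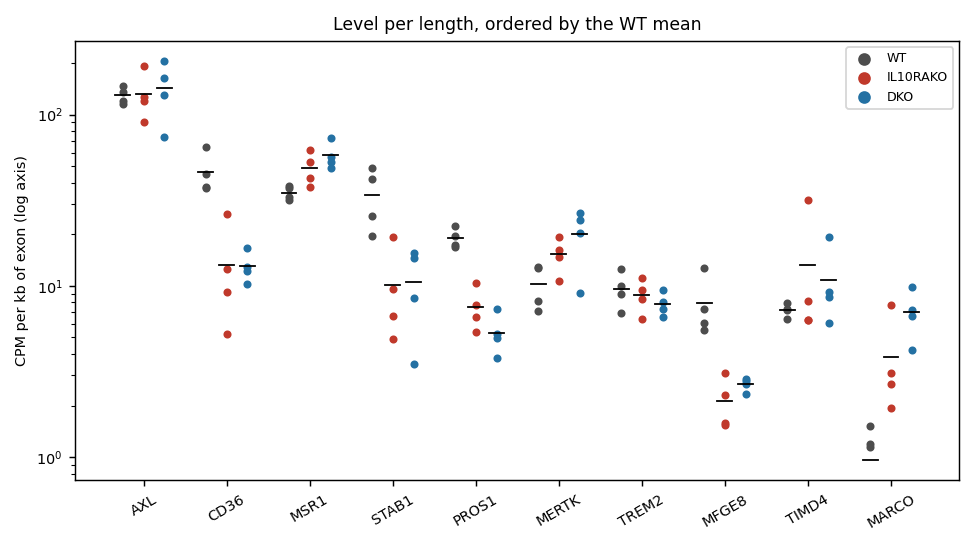
CPM per kb of merged exon (y axis, log scale) of the 10 genes (x axis, ordered by the WT mean) in single mice, coloured by genotype, with a bar at each mean (n = 4). WT mouse 10, with 0 reads of MARCO, cannot be drawn on a log axis but is in the mean. AXL is the highest in every genotype, and CD36 lies below MSR1 by its mean in both knockout genotypes (13.3 against 48.9 and 13.0 against 58.0).

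For the 5 members with a log2 difference of at least 1 in either genotype, the start-site regions are shown, since these genes moved furthest and in opposite directions. The regions run from 250 bases before to 50 after the RefSeq start (GRCm38.p6, 5′ to 3′ on the gene's strand), and capitals mark matches to any of 6 motifs searched on both strands. PROS1 lies at chr16:62854057-62854356 (plus strand), MFGE8 at chr7:79149011-79149310 (minus), STAB1 at chr14:31168592-31168891 (minus), CD36 at chr5:17835847-17836146 (minus) and MARCO at chr1:120504975-120505274 (minus).
PROS1: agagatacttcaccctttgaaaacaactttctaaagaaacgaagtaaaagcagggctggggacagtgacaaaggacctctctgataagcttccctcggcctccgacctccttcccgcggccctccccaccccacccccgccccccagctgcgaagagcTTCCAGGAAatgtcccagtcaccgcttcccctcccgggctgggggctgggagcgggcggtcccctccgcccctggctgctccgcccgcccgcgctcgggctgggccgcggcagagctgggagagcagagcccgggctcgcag
MFGE8: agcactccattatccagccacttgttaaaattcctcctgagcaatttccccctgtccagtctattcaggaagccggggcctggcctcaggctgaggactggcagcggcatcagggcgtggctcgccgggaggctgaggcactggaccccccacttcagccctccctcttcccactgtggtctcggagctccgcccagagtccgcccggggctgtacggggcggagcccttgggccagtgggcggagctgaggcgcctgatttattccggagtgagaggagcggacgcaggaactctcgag
STAB1: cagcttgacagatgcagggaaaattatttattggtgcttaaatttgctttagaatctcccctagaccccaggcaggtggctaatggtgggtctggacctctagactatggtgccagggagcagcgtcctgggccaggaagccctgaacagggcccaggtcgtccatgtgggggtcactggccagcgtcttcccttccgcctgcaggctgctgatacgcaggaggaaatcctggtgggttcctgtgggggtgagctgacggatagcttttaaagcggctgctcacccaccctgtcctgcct
CD36: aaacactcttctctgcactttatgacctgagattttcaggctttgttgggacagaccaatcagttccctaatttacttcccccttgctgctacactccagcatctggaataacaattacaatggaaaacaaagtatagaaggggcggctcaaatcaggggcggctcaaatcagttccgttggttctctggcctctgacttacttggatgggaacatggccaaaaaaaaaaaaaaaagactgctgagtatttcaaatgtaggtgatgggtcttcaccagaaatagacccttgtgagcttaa
MARCO: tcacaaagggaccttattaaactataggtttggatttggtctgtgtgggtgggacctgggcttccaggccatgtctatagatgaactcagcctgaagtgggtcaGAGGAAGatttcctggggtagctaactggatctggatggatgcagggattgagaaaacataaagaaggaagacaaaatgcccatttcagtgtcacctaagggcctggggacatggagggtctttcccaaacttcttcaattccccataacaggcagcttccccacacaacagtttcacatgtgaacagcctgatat
PROS1 held a STAT element TTCNNNGAA (8.3% of all 32851 promoters) from 92 to 84 bases before the start. MARCO, AXL and TREM2 held the PU.1 element GAGGAAG (13.6%), in MARCO from 146 to 140 bases before the start. Of the other motifs, the C/EBP element TTGCNNAA (10.8%) and the AP-1 element TGANTCA (7.81%) occurred in TREM2, the IRF element GAAANNGAA (8.56%) in TIMD4, and the NF-kB element GGGNNTTCC (5.82%) in none of the 9 members with a RefSeq promoter. MFGE8, STAB1, CD36 and MERTK held no match, MSR1 was not matched, and no matches of different motifs overlapped. The 4 genes that fell shared none of these motifs in this window. For CD36 the window lay at a RefSeq start inside the gene span given above, not at the 5′ end of that span.

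By the likeness of mean-centred log2 CPM over the 12 libraries, the genes nearest to PROS1 were GPX3 (root mean square difference 0.21), NT5DC2 (0.25) and DAB2 (0.27). DBP (0.31), TFPI (0.33) and ADAM19 (0.36) were nearest to MFGE8, MAN2A2 (0.26), RHOB (0.26) and JCAD (0.30) to STAB1, and SLC7A4 (0.32), MAGED2 (0.32) and ZFP704 (0.35) to CD36. All 12 of these genes had log2 differences between -2.10 and -1.31 in both comparisons with WT. MARCO had no gene as close in this measure, and IL12RB2 (0.57), CACNB3 (0.92) and HSH2D (0.94) were its nearest. The measure is not scaled by a gene's own spread. That spread was 1.905 for MARCO and 0.84 to 1.13 for PROS1, MFGE8, STAB1 and CD36. Within the set, the closest pairs were AXL with TREM2 (0.38) and MFGE8 with CD36 (0.43). In this measure genes that vary little come out close to each other. AXL and TREM2 passed in no comparison, so their closeness does not show a shared profile.

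The rest of the clearance pathway was read from 85 other listed symbols, of which 83 were in the count table and 77 were tested. In IL10RAKO against WT, 25 passed (17 higher, 8 lower), where 15.8% of all genes passed (8.7% higher, 7.1% lower). In DKO against WT 32 passed (23 higher, 9 lower), where 18.5% of all genes passed (9.23% higher, 9.22% lower). Their median log2 difference was 0.22 and 0.12, against -0.07 and -0.06 for all genes. In DKO against IL10RAKO, 0 passed in edgeR, 4 had an unadjusted p under 0.05, and 1 passed in DESeq2 (PPARG, log2 difference -1.33, adjusted p = 0.0141). With the fibroblast covariate none passed in any comparison.

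Bridging molecules other than the members included a far larger fall. GAS6, the second TAM ligand, was at 208, 248, 254 and 242 CPM in WT mice, at 14.6, 5.67, 38.1 and 24.9 CPM in IL10RAKO mice and at 13.5, 17.99, 14.5 and 21.8 CPM in DKO mice. It was lower by a log2 difference of -3.51 in IL10RAKO (SE 0.42, edgeR adjusted p = 6.63e-05) and -3.81 in DKO (SE 0.43, edgeR adjusted p = 3.13e-05). Both TAM ligands were thus lower, while MERTK and AXL did not pass as lower. GAS6 was at 253 CPM in the CCR2KO mouse, which had no listed *Il10ra* mutation and the highest fibroblast sum (681 CPM). Fibroblasts are a known source of GAS6, and their part cannot be told apart from genotype here. Of 9 tested bridging genes, 3 passed in each comparison (1 higher, 2 lower), against 15.8% and 18.5% of all genes, with medians of -0.16 and -0.47. ANXA1 also fell (-0.75 and -1.05), THBS1, a ligand of CD36, rose (1.77 and 1.07), and the other 6 did not pass, among them C1QA (-0.15 and -0.44).

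Other scavenger receptors passed most often, with 6 of 8 in each comparison (4 higher, 2 lower), where 15.8% and 18.5% of all genes passed, and with medians of 0.48 and 0.49. The lists were fixed with earlier results of these data known, so the ranking of lists is descriptive only. The CPM of CD163, the haemoglobin scavenger receptor, was 99.7 ± 39.6 for WT, 3.88 ± 3.18 for IL10RAKO and 1.499 ± 0.72 for DKO (mean ± SD, n = 4 each, log2 differences -4.66 and -6.08, edgeR adjusted p = 4.81e-05 and 8.32e-06). OLR1, which binds oxidised LDL, rose from 6.01 ± 4.16 CPM to 66.9 ± 40.2 (IL10RAKO) and 72.9 ± 34.1 (DKO). SCARF1 rose as well (log2 differences 1.94 and 2.32). COLEC12, a further class A receptor named after its values were seen, fell (-2.42 and -1.89). Among other receptors of apoptotic cells, 4 of 12 passed in each comparison (3 higher, 1 lower), against the same shares, with medians of -0.28 and -0.24. CD300LF, a phosphatidylserine-binding inhibitory receptor, rose (2.62 and 2.56), CD14 rose (1.91 and 1.74), HAVCR2 (TIM-3) rose (1.05 and 0.91), and CD300LB fell (-0.74 and -1.51). The integrin subunits that MFGE8 engages did not pass, with log2 differences of -0.60 and -0.53 for ITGAV, 0.48 and 0.27 for ITGB3 and -0.00069 and -0.26 for ITGB5.

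Of the genes around TREM2, 1 of 11 passed in IL10RAKO (1 higher) and 5 of 11 in DKO (4 higher, 1 lower), against 15.8% and 18.5% of all genes, with medians of 0.44 and 0.24. TREM1, the inflammatory relative of TREM2 that shares its adaptor, rose from 19.7 ± 9.45 CPM (WT) to 345 ± 131 (IL10RAKO) and 347 ± 40.6 (DKO), with log2 differences of 4.13 and 4.14 (edgeR adjusted p = 4.31e-06 and 3.55e-06). TREM1 is also a gene of neutrophils, which the Ly6G- gate should leave out but whose markers were higher in the same mice, and their part was not tested. In DKO, APOE, a lipoprotein that TREM2 binds, fell (-1.20) and CD9 rose (0.85). TYROBP, the adaptor, did not pass (0.47 and 0.13).

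Find-me receptors and the CD47 and SIRPA restraint were mixed, with 3 of 8 past the threshold in IL10RAKO (1 higher, 2 lower) and 4 of 8 in DKO (2 higher, 2 lower), against 15.8% and 18.5% of all genes, and with medians of -0.17 and -0.14. P2RY2, a nucleotide receptor, rose (1.55 and 1.70) and P2RY12 fell (-0.90 and -1.10). P2RY6 fell in IL10RAKO (-0.93), and CX3CR1, the fractalkine receptor, fell in DKO (-1.21). Of 10 genes of the engulfment machinery, which includes the ELMO, DOCK and RAC genes, 0 passed in edgeR in either comparison, with 0 and 1 at an unadjusted p under 0.05. Their median absolute log2 difference was 0.11 in IL10RAKO and 0.08 in DKO, against 0.39 and 0.41 for all genes.

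Of 12 genes of phagosome maturation and digestion, 5 passed in IL10RAKO and 7 in DKO, all of them higher, where 8.7% and 9.23% of all genes passed as higher. Their median log2 difference was 0.48 and 0.47. CYBB, the catalytic subunit of the phagocyte oxidase, rose by log2 differences of 0.90 and 1.17, and BECN1 by 0.67 and 0.61. UVRAG rose by 0.64 and 0.46, and LAMP1, a lysosomal membrane protein, rose in DKO (0.63). Of 7 lipid-sensing regulators, 3 passed in each comparison (2 higher, 1 lower), against 15.8% and 18.5% of all genes, with medians of -0.36 and 0.12. The CPM of PPARG, a nuclear receptor that activates CD36, was 22.5 ± 2.83 for WT, 9.82 ± 2.82 for IL10RAKO and 3.86 ± 1.28 for DKO (log2 differences -1.20 and -2.54, edgeR adjusted p = 0.0110 and 5.15e-05). NR1H3 and NR1H2, the LXR genes, rose (0.95 and 0.47 in IL10RAKO, 1.08 and 0.59 in DKO).

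**Figure D5:**
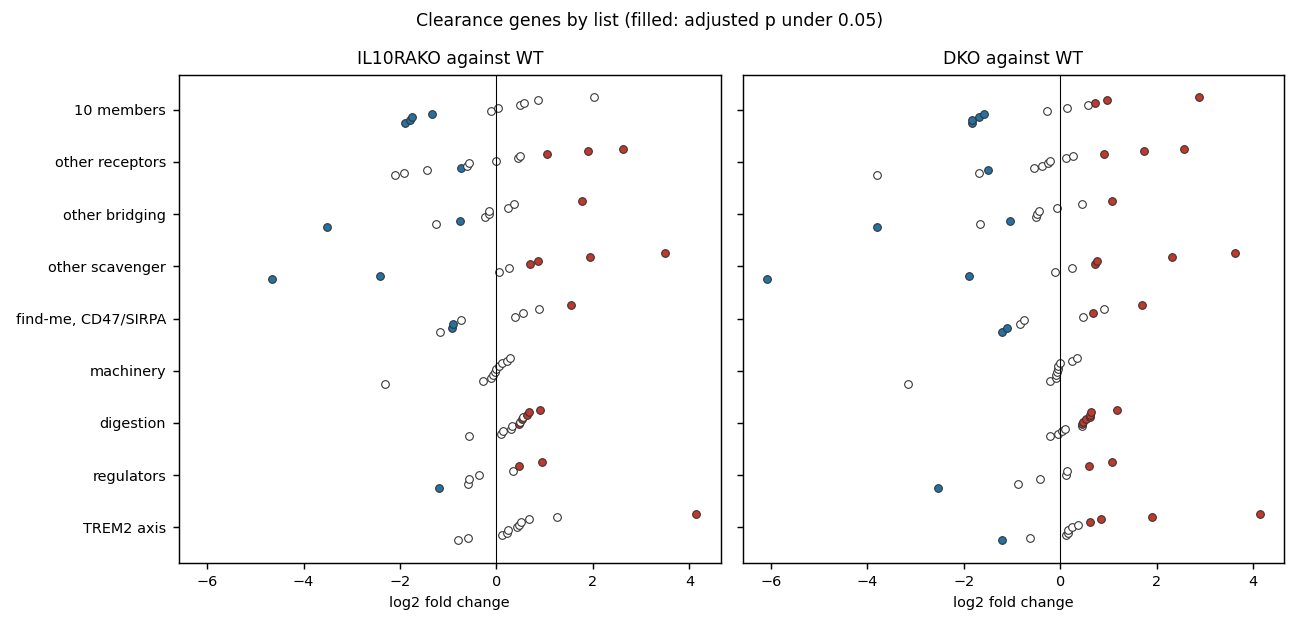
Log2 fold change (x axis) of each tested gene in the set of 10 and in 8 lists of other clearance genes (rows), for IL10RAKO against WT (left) and DKO against WT (right). Points filled red (higher) or blue (lower) passed an adjusted p of 0.05, and open points did not. Scavenger receptors passed most often (6 of 8 in each comparison), digestion genes only as higher, and no gene of the engulfment machinery passed. The lists were fixed with earlier results of these data known.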

How the data were processed

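RNA of sorted colonic macrophages was made into SmartSeq v4 cDNA libraries, 1 per mouse (14 libraries), and paired-end sequenced. The authors aligned reads to mm10 with STAR 2.5.1b and deposited raw counts of reads per gene, not normalized. Annotation, strand setting and treatment of multiply aligned reads are not given in the sources used here. The authors also deposited edgeR 3.34.0 pseudocounts, a normalized score for 13338 genes in 12 libraries. These 12 (4 per genotype) were compared. The other WT library entered an alternative, and the CCR2KO library no test. No per-sample column was left out (0).

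Counts were filtered with filterByExpr by genotype (minimum count 10), TMM-scaled and fitted together in edgeR 4.0.16 (R 4.3.3) with glmQLFit and glmQLFTest. Benjamini-Hochberg adjustment ran over 13136 genes, with calls under 0.05. P-values measure the spread between mice of a genotype. Log2 CPM used a prior count of 2. Positions and exon lengths came from GENCODE vM21 (24490 of 24982 symbols matched), and promoters from RefSeq (9 of 10 members). Alternatives were DESeq2 1.42.0, limma 3.58.1 on the pseudocounts, other scalings, filters, deviances and dispersions, 13 libraries, marker covariates and leaving out each mouse. The edgeR script was tested on simulated data. No pair within a genotype among the 12 libraries was a duplicate (chi-square per degree of freedom 31.9 or more). Figures were drawn with matplotlib 3.10.9.

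Members, lists and tests were chosen with earlier results of these data known. Named were all members, the targeted genes, for each list and comparison the 3 genes with the smallest p among those that passed, and the 3 genes most like each member with an absolute log2 difference of at least 1. ITGAV, ITGB3, ITGB5, TYRO3, C1QA and TYROBP were named as partners of members after their values were seen. A gene of the regulator list is not reported by name. All members passed the filter, so the exact permutation test planned for members below it was not needed.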

Additional observations from a re-analysis of the deposited data

Results flagged for a closer look

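In 40 groups of 4 or 5 mice, a single library stood far from the others by Dixon's criterion in 3, where chance gives about 5%. TIMD4 was at 69.3 CPM in IL10RAKO mouse 1, against 13.6 to 17.7 in the other IL10RAKO mice. MARCO had 0 CPM in WT mouse 10, against 2.20 to 2.93 in the other WT mice compared. With WT mouse 11 added to the WT group, TIMD4 was at 0 CPM in that mouse, against 13.9 to 17.2 in the others.

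The CCR2KO library, which entered no comparison, was above all 4 WT mice compared for TIMD4 (40.7 CPM against 13.9 to 17.2). It was also above them for MSR1 (266 CPM against 200.5 to 242), though WT mouse 11 had 268 CPM. The CCR2KO library was below all 4 for MERTK (28.7 CPM against 31.1 to 55.7), AXL (535 against 583 to 738) and STAB1 (148 against 202 to 501). CCR2KO is a single mouse, so none of these differences was tested.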

How the results depend on the processing

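No paired analysis was possible because the genotypes hold different mice with no label that ties them. Of 25 alternatives, 2 covariates moved the counts of members that passed by over 1.5 times: with fibroblast markers 0 in IL10RAKO and 0 in DKO against WT (from 4 and 7), and with endothelial markers, added after seeing the data, 2 and 4. The epithelial covariate, also added then, left 4 and 7. For the other clearance genes (25 and 32), these were 0 and 0, 16 and 19, and 26 and 31. DESeq2 called 1 other clearance gene (PPARG) between DKO and IL10RAKO, where edgeR called 0. The fibroblast covariate separates WT from all knockout mice without overlap. Leaving out 1 mouse gave 3 to 4 and 5 to 7 members, and 20 to 29 and 22 to 35 other genes. With 10 reads in every library MARCO had no value.

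Signs turned only for differences that did not pass. AXL in IL10RAKO was -0.28 with library totals, -0.021 with 10 reads in every library, -0.053 with 13 libraries, -0.011 with limma, -0.029 with epithelial markers, and -0.0013, -0.016 and -0.21 without WT mouse 4, WT mouse 5 or IL10RAKO mouse 7 (leaving out mice, -0.21 to 0.18). AXL in DKO was -0.11 with totals and -0.073 without mouse 14 (range to 0.37), and against IL10RAKO -0.027 without IL10RAKO mouse 2 and -0.11 without DKO mouse 14 (range to 0.38). TREM2 in IL10RAKO was 0.15 with endothelial markers, 0.015 without IL10RAKO mouse 1 and 0.041 without WT mouse 13 (range from -0.24). TIMD4 without IL10RAKO mouse 1 was -0.049 against WT (range to 1.11) and 0.64 in DKO against IL10RAKO (range from -0.72), and 0.0070 there with fibroblast markers. Between DKO and IL10RAKO, CD36 was 0.0017 with totals, 0.19 with limma, 0.26 with epithelial markers, and 0.55 and 0.064 without IL10RAKO mouse 7 or DKO mouse 12 (range from -0.30). STAB1 there was -0.087 with fibroblast and -0.057 with endothelial markers, and -0.16, -0.090, -0.13 and -0.19 without IL10RAKO mouse 1 or 8 or DKO mouse 12 or 14 (range to 0.60). The cause was not tested. Low counts limit MARCO, with 0 to 46 reads in the 4 WT mice compared, while WT mouse 11 had 262. The count of 0 was in WT mouse 10, the WT library with the most counted reads (21024878).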
